A study of Capsella rubella with 6 samples.

Results

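A group of 13 genes of *Capsella rubella*, a selfing relative of Arabidopsis, had from 75% to under 85% maternal reads in the endosperm libraries of both reciprocal crosses. They are all the genes with 50 or more allelic reads and a maternal share of at least 75% and under 85% in each of 4 endosperm libraries. An allelic read is a read counted at a SNP whose 2 bases tell the parents apart, and the maternal share is maternal reads over maternal plus paternal reads of a gene. Among 12638 genes with a SNP and an allelic read in any library, 5879 had 50 or more in each library, and 13 of these met the bounds. The genes were chosen by their shares in all 4 libraries, so every share below is a description and carries no test.

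The libraries were endosperm RNA of 2 accessions, Cr A (Cr48.21) crossed with Cr B (Cr75.2), each serving once as seed parent, with 2 libraries named Cr A x Cr B and 2 named Cr B x Cr A. Flowers of the seed parent were emasculated, pollen was applied by hand after 2 days, and the endosperm of 300 to 500 seeds was dissected 6 days after pollination and pooled for each library. Since the sex of the partners is not labelled, names were read as female x male, and nothing in the labels says that the 2 libraries of a cross came from separate plants.

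Endosperm is the nourishing tissue of the seed. It arises when the pair of maternal nuclei of the central cell fuses with a single sperm, so a gene read equally from every genome copy gives 2 maternal transcripts for 1 paternal transcript, a maternal share of 66.7%. Imprinted genes depart from this because the maternal and the paternal copies carry different chromatin marks, such as DNA methylation removed in the central cell or histone methylation laid down by Polycomb proteins. A maternally expressed imprinted gene in the strict sense gives nearly all its transcripts from the maternal copies. The shares described here, summed over the SNPs of each gene, lie in number between that state and the dosage. Some single SNPs of these genes did not.

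Library totals were 8122761 and 11702341 allelic reads over all SNPs in Cr A x Cr B, against 9524883 and 11637156 for Cr B x Cr A. The median gene had 69.3% and 67.7% maternal reads in the 2 libraries of Cr A x Cr B, against 69.4% and 72.2% for Cr B x Cr A. All 4 medians were above 66.7%, and replicate 2 of Cr B x Cr A stood highest. Without gene names in the files, the labelled tissue could not be checked against marker genes, and genes are given by position. Reads from maternal seed tissue, if any was present, cannot be told apart from maternal reads of the endosperm.

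The band from 75% to 85% was well filled in every single library and nearly empty across all 4. It held 1039 genes, or 17.7%, in the first library of Cr A x Cr B and 682, or 11.6%, in the second. For Cr B x Cr A it held 1048 genes, or 17.8%, in replicate 1 and 1535, or 26.1%, in replicate 2. Of the 5879 genes, 1955 lay in the band in 1 library, 997 in 2, 101 in 3 and 13 in all 4. Both libraries of Cr A x Cr B placed 358 of the 5879 genes there, and both of Cr B x Cr A placed 545 of the 5879. On both lists were 13, which is 3.63% of the first and 2.39% of the second. Whether that is fewer than unrelated lists of these sizes would share was not tested.

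**Figure D1:**
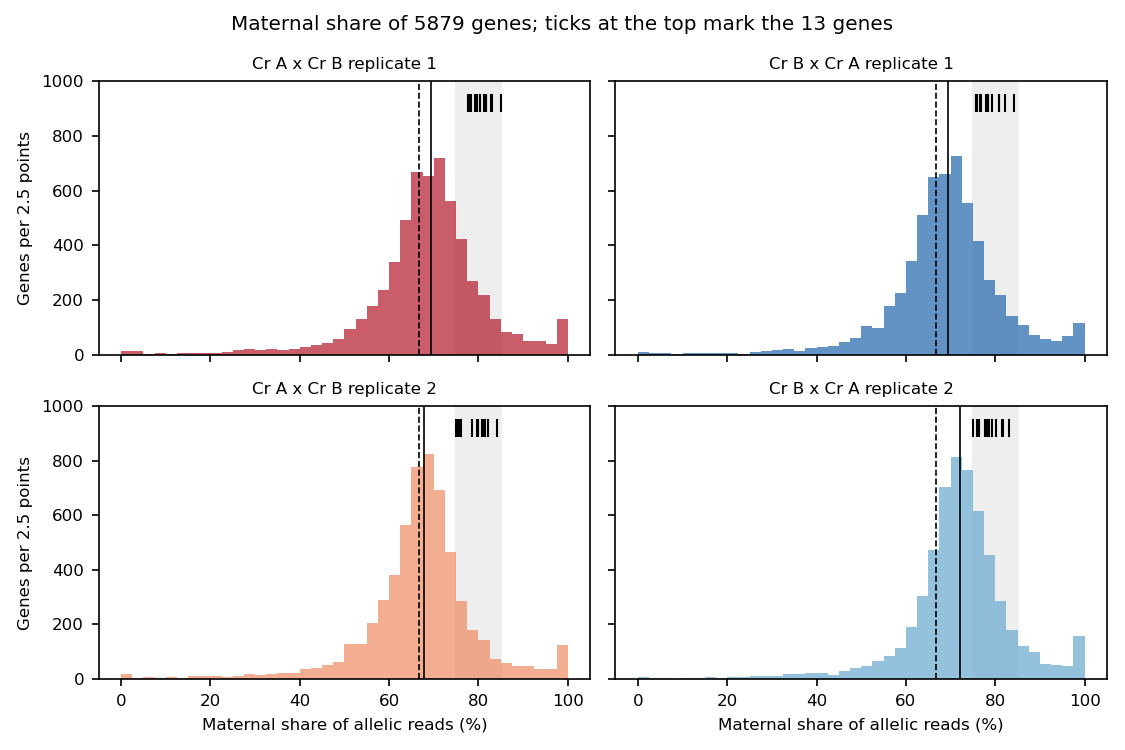
Maternal share of allelic reads (x axis, %) against the number of genes per 2.5 points (y axis) for 5879 genes in each library, with Cr A x Cr B on the left and Cr B x Cr A on the right. Solid lines are library medians (69.3% and 67.7%, 69.4% and 72.2%), dashed lines mark 66.7%, grey marks the band from 75% to 85%, and the ticks at the top, the 13 genes, sit on the right shoulder of each distribution and apart from the small peak near 100%.

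Most of the 101 genes that missed the band in a single library missed it downwards. In replicate 2 of Cr A x Cr B, the library with the lowest median, 36 such genes fell under 75% and 0 reached 85%. In replicate 1 of Cr B x Cr A the counts were 29 under 75% and 4 at 85% or more. Applying the bounds to 3 libraries gave 30 genes when replicate 1 of Cr A x Cr B was left out and 52 when its replicate 2 was, 47 when replicate 1 of Cr B x Cr A was and 32 when its replicate 2 was, so each of the 4 libraries limits the list of 13.

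The 13 genes are called M1 to M13 in order of allelic reads over the 4 libraries, which ran from 8449 for M1 to 405 for M13. The mean share over the 4 libraries lay between 77.4% (M5) and 81.7% (M7), which is 3.43 and 4.46 maternal reads for each paternal read. Summed over the 13 genes, the share was 79.7% and 79.9% in Cr A x Cr B, against 78.1% and 79.1% in Cr B x Cr A. Of the 52 gene and library values, 50 had a 95% interval (Clopper-Pearson, counting error only) wholly above 66.7%, and 15 had one wholly inside the band. The 2 others were M12 in replicate 1 of Cr B x Cr A, with an interval from 65.3% to 87.7%, and M13 in replicate 2 of Cr A x Cr B, with 62.7% to 85.5%. They had 59 and 61 reads. The rule that chose the genes already placed every share above 66.7%, so the count of 50 was close to fixed and is no test. A read that covers several SNPs is counted at each, so intervals of genes with several SNPs can be too narrow.

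Against the rest of the endosperm transcriptome the excess was smaller than against 66.7%. In Cr A x Cr B the 13 genes stood at the 82.6th to 93.8th percentiles of the 5879 genes. In replicate 2 of Cr B x Cr A they began at the 65.0th percentile, where M3 lay 2.84 points above the median gene. Shifting each library so that its median gene sits at 66.7% left 6 genes in the band, 3 of them among the 13.

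The edges of the list are narrow. Just inside 75% were M3 with 75%, 645 of 860 reads, and M5 with 75.1%, and just outside were a gene at scaffold 7, 3953952 to 3958131, with 74.9% of 471 reads in replicate 2 of Cr B x Cr A and a gene at scaffold 3, 5051658 to 5057494, with 74.9% of 4119 reads in replicate 2 of Cr A x Cr B. At the upper edge, M11 had 84.97% of 153 reads in replicate 1 of Cr A x Cr B, against 85.7% of 112 reads in the same library for a gene at scaffold 7, 4572993 to 4582980. At the read minimum, M12 was kept with 59 reads in replicate 1 of Cr B x Cr A, and 8 other genes met the share bounds with too few reads, the nearest with 32 reads in replicate 1 of Cr A x Cr B. Scaffold numbers and coordinates are those of the deposited tables.

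**Figure D2:**
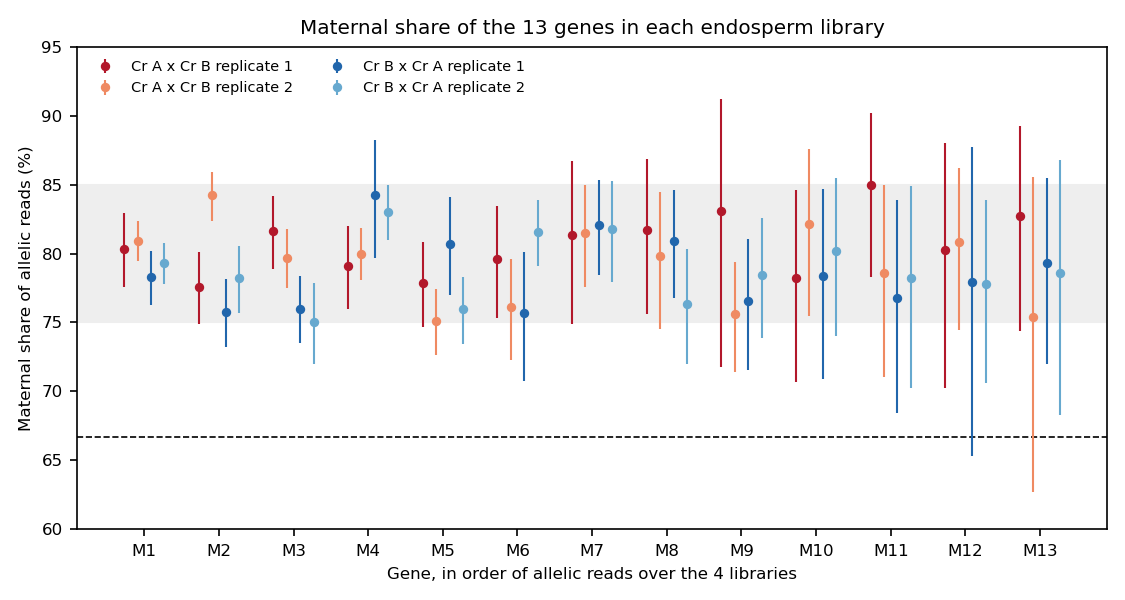
Maternal share (y axis, %) of M1 to M13 (x axis, in order of allelic reads) in each of the 4 libraries, Cr A x Cr B in red and Cr B x Cr A in blue, with 95% Clopper-Pearson intervals. Grey is the band that chose the genes and the dashed line is 66.7%; intervals widen from M1, with 881 to 2914 reads a library, to M13, with 61 to 150.

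M7, M1, M12 and M10 had the most even shares. M7 (scaffold 3, 1498235 to 1501231, minus strand) had 81.3% and 81.5% in Cr A x Cr B, against 82.1% and 81.8% in Cr B x Cr A, a range of 0.753 points. M1 (scaffold 5, 8646845 to 8648500, minus strand) had 80.4% and 80.9% in Cr A x Cr B, against 78.3% and 79.3% in Cr B x Cr A. M1 is also the deepest, with 881 and 2912 reads in Cr A x Cr B, against 1742 and 2914 in Cr B x Cr A, and all 4 of its intervals lay inside the band. All of those reads came from 1 SNP, in an exon, and no second SNP of the gene can check its share. M12 (scaffold 1, 6356918 to 6362464, minus strand) had 80.2% and 80.9% in Cr A x Cr B, against 78.0% and 77.8% in Cr B x Cr A. M10 (scaffold 2, 11214984 to 11216418, minus strand) had 78.2% and 82.1% in Cr A x Cr B, against 78.4% and 80.2% in Cr B x Cr A. M10 rested on 147 to 202 reads a library, so its range of 3.91 points lies within the width of its intervals.

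The shares of M3 and M4 lay apart between the crosses, in opposite directions. M3 (scaffold 8, 1277580 to 1278839, minus strand) had 81.7% and 79.7% in Cr A x Cr B, against 76.0% and 75% in Cr B x Cr A, 5.18 points higher in Cr A x Cr B. M4 (scaffold 5, 13011919 to 13013620, plus strand) had 79.1% and 80.0% in Cr A x Cr B, against 84.3% and 83.1% in Cr B x Cr A, a difference of -4.10 points. Libraries of the crosses did not overlap in 6 of the 13 genes: Cr A x Cr B was above in M1, M3, M11 and M12, against a background of 23.7% of all 5879 genes, and below in M4 and M7, against 38.5%. Non-overlap in either direction occurred in 62.3% of all genes. In the edgeR fit of parent, accession and library, the accession term had an adjusted p of 0.32 in M3 and 0.39 in M4. The bounds keep differences between the crosses small, so nothing is read from their size or from these p-values.

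M11, M13, M9 and M2 had the widest ranges. A single library stood highest in M11, M9 and M2, while the 2 libraries of Cr A x Cr B lay at both ends of the range of M13. M11 (scaffold 8, 8838454 to 8841660, plus strand) had 84.97% in replicate 1 of Cr A x Cr B and 78.6% in replicate 2, against 76.8% and 78.2% in Cr B x Cr A. M13 (scaffold 6, 14938243 to 14939405, plus strand) had 82.7% and 75.4% in Cr A x Cr B, against 79.3% and 78.6% in Cr B x Cr A. M9 (scaffold 4, 513547 to 517665, minus strand) had 83.1% and 75.6% in Cr A x Cr B, against 76.5% and 78.5% in Cr B x Cr A. This high value of M9 came from its shallowest library, with 65 reads and an interval from 71.7% to 91.2%. M2 (scaffold 6, 6048843 to 6051387, plus strand) had 77.6% and 84.2% in Cr A x Cr B, against 75.7% and 78.2% in Cr B x Cr A. Depth was not short in M2: its high library had 1635 reads, and the interval of 82.4% to 86.0% does not meet those of the other 3 libraries.

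M5, M6 and M8 lay between these groups, and their crosses overlapped. M5 (scaffold 4, 6641875 to 6647089, plus strand) had 77.9% and 75.1% in Cr A x Cr B, against 80.7% and 76.0% in Cr B x Cr A. M6 (scaffold 2, 2430560 to 2434081, minus strand) had 79.6% and 76.1% in Cr A x Cr B, against 75.7% and 81.6% in Cr B x Cr A. M8 (scaffold 4, 9023031 to 9026230, plus strand), read at 1 SNP, had 81.7% and 79.9% in Cr A x Cr B, against 80.9% and 76.4% in Cr B x Cr A.

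Gene shares sum 68 SNPs, 65 in listed exons and 3 in introns, and a share near 80% can be a sum of unlike SNPs. M1, M8, M10, M11 and M13 had 1 SNP each. The other 8 genes had 51 SNPs with 20 or more reads over the 4 libraries, of which 30 lay in the band, 14 under 75% and 7 at 85% or more. Of 28 with 20 or more reads in each library, 4 lay in the band in all 4 libraries, 2 of them in M3 and 2, which are 4 bp apart and can share reads, in M4.

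In M3, M9 and M12 the SNPs were close to the share of the gene when the 4 libraries were summed. All 7 SNPs of M3, spread over 676 bp, lay between 76.5% and 80.0% over the 4 libraries. M9 had 77.7% and 75.9% at its 2 SNPs, 912 bp apart. The 3 SNPs of M12 lay between 76.2% and 81.2%. In these genes no SNP with 20 or more reads was outside the band in that sum. By cross some were: the SNP of M3 at 1277765 had 86.5% and 84.5% in Cr A x Cr B, against 72.5% and 68.3% in Cr B x Cr A. In M12 the SNP at 6358709 had 81.2% of 85 reads in Cr A x Cr B, against 71.1% of 83 in Cr B x Cr A, and the SNP at 6360475 had 75% of 36 reads in Cr A x Cr B, against 88.0% of 25 in Cr B x Cr A.

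M7 was the clearest sum of unlike SNPs, although its gene share was the most even. Its 5 SNPs nearer the 5′ end, at 1499209 to 1500192, had 452 maternal and 4 paternal reads, a maternal share of 99.1% with a 95% interval from 97.8% to 99.8%. Its 5 SNPs nearer the 3′ end, at 1498297 to 1499105, had 842 maternal and 285 paternal reads, or 74.7% with an interval from 72.1% to 77.2%. The nearest SNPs of the 2 sets are 104 bp apart in the same listed exon, at 1498235 to 1499542, which holds 3 SNPs of the upstream set and all 5 of the downstream set.

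The upstream share was above the downstream share in all 4 libraries of M7, with intervals that did not overlap in 3 of them. Upstream, the maternal share was 100% of 99 reads and 98.6% of 144 in Cr A x Cr B, against 92.6% of 27 and 100% of 186 in Cr B x Cr A. At the downstream SNPs it was 59.0% of 83 reads and 73.4% of 304 in Cr A x Cr B, against 81.5% of 475 and 69.1% of 265 in Cr B x Cr A. In replicate 1 of Cr B x Cr A, with 27 upstream reads, the intervals overlapped, from 75.7% to 99.1% upstream and from 77.7% to 84.9% downstream. The downstream share was lowest in replicate 1 of Cr A x Cr B, where the upstream SNPs gave 99 of 182 reads of the gene, and highest in replicate 1 of Cr B x Cr A, where they gave 27 of 502. The dividing point was chosen after the values were seen. Whether the interval spans more than 1 transcript was not tested.

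**Figure D3:**
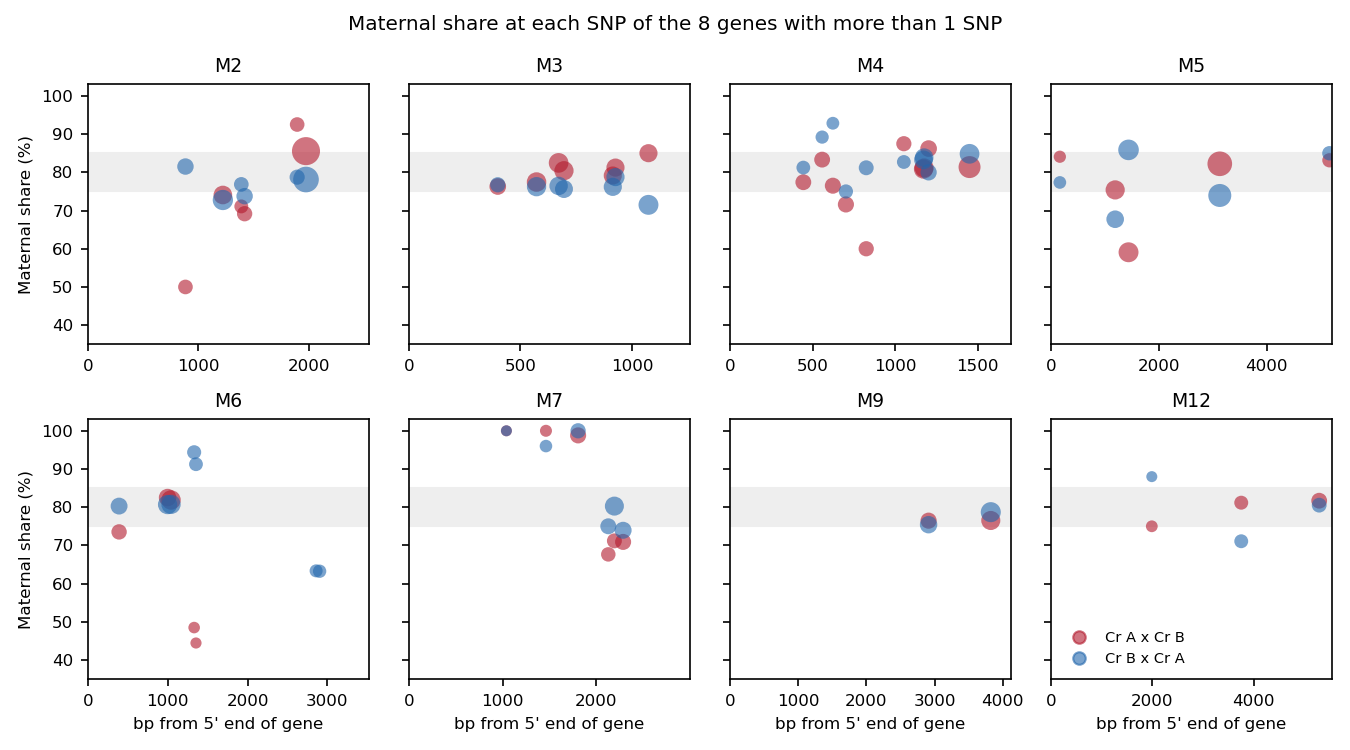
Maternal share at each SNP (y axis, %) against distance from the 5′ end of the gene (x axis, bp) for the 8 genes with more than 1 SNP, with the 2 libraries of a cross summed, Cr A x Cr B in red and Cr B x Cr A in blue. Point area grows with reads, SNPs with under 20 reads in a cross are left out for that cross, and grey is the band; M9 lies flat, the crosses part at the SNP of M3 nearest its 3′ end, M7 steps down towards its 3′ end, and M2, M5 and M6 hold SNPs far lower in Cr A x Cr B, with differences down to -46.8 points.

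M2, M5 and M6 held SNPs that were much lower in Cr A x Cr B, and those SNPs did not set the gene share alone. In M5 the SNP at 6643313 had 60.6% and 58.6% in Cr A x Cr B, against 93.8% and 84.0% in Cr B x Cr A. Its deepest SNP, at 6645007, went the other way, with 82.4% and 82.1% in Cr A x Cr B, against 75.9% and 72.7% in Cr B x Cr A. Summed to the gene, the share of M5 balances these 2 SNPs, which held 24.99% and 50.5% of its reads. In M6 the SNPs at 2432727 and 2432750, 23 bp apart and able to share reads, had 44.4% of 27 reads and 48.5% of 33 in Cr A x Cr B, against 91.2% of 80 and 94.4% of 89 in Cr B x Cr A. Replicate 1 of Cr B x Cr A gave only 2 of those 80 reads and 11 of those 89. The SNP at 2432727 had 20.0% of 10 reads and 58.8% of 17 in the libraries of Cr A x Cr B. The deepest SNP of M6, at 2433040, had 87.4% and 76.6% in Cr A x Cr B, against 80.0% and 81.0% in Cr B x Cr A. In M2 the SNP at 6049726 had 19.2% of 26 reads and 59.8% of 82 in Cr A x Cr B, against 68.6% of 86 and 92.9% of 98 in Cr B x Cr A, so libraries of the same cross also stood far apart. The SNP of M2 at 6050818 held 63.5% of its reads. It had 80.4% and 89.7% in Cr A x Cr B, against 76.9% and 80.1% in Cr B x Cr A.

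M4 was in between, with SNPs from 70.0% to 85.6%. Its SNP at 13012744 had 60.0% of 130 reads in Cr A x Cr B, against 81.2% of 117 in Cr B x Cr A. Of its 10 SNPs, 8 were lower in Cr A x Cr B, and close SNPs can share reads, so these are not independent. Replicate 1 of Cr B x Cr A was shallow at some of them, with 9 reads at 13012744, 4 at 13012477 and 12 at 13012542. Over the 44 SNPs of the 8 genes with 20 or more reads in each cross, 34 differed by at most 10 points between the crosses, 20 were higher in Cr A x Cr B and 23 lower. What sets the SNPs with large differences apart was not tested.

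Total expression is a measure that the rule used only for its read minimum. Allelic reads, maternal plus paternal, were compared between Cr A x Cr B and Cr B x Cr A as reads per 1000000 allelic reads (CPM), which depend on how many SNPs a gene holds and so are compared between libraries and not between genes. In bulk endosperm, fewer cells of a type and less RNA per cell cannot be told apart. By edgeR's quasi-likelihood test with Benjamini-Hochberg adjustment, 0 of 9040 genes (background 0%) and 0 of the 13 passed 0.05 between the crosses. The smallest adjusted p over all genes in this test was 0.40. With 2 libraries in each cross, a gene that was not called cannot be said to be equal in level. At an unadjusted p under 0.05 there were 123 genes, again 0 of the 13, and DESeq2 called 16 of 12638 genes higher and 8 lower in Cr A x Cr B, 0 of the 13 among them.

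M8 had the lowest fitted difference and was the only gene of the 13 whose crosses did not overlap in level. It had 27.1 and 23.8 CPM in Cr A x Cr B, against 49.8 and 35.8 CPM in Cr B x Cr A, a log2 difference of -0.75 ± 0.48 (SE) with an adjusted p of 1.00 in edgeR. Among all genes tested, 24.6% had crosses that did not overlap, and nothing is read from 1 gene of 13 beside that share. M4 had the highest, 0.70 ± 0.66, with 100.8 and 156.7 CPM in Cr A x Cr B, against 36.4 and 122.5 CPM in Cr B x Cr A. Replicate 1 of Cr B x Cr A was the low library of M4, and the 3 others lay between 100.8 and 156.7 CPM. The log2 difference of M4 was 0.072 without that library and 1.84 without replicate 2 of Cr B x Cr A.

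In the other genes the crosses overlapped in level. M7 had 25.03 and 39.8 CPM in Cr A x Cr B, against 61.1 and 38.5 CPM in Cr B x Cr A (log2 -0.62 ± 0.52). M9 had 8.94 and 41.5 CPM in Cr A x Cr B, against 39.5 and 30.9 CPM in Cr B x Cr A, and its low library is the one with the high maternal share. M10 had the smallest fitted difference, with 20.2 and 14.9 CPM in Cr A x Cr B, against 18.0 and 17.3 CPM in Cr B x Cr A.

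Among the 8 remaining genes, fitted log2 differences ran from -0.35 (M6) to 0.44 (M12), and in several a library differed from its partner more than the crosses did. M13 had 15.1 and 5.42 CPM in Cr A x Cr B, against 18.3 and 7.18 CPM in Cr B x Cr A, so replicate 1 was the higher in both crosses. M1 had 121.2 and 258.5 CPM in Cr A x Cr B, against 212.1 and 249.0 CPM in Cr B x Cr A, with 1 low library. M6 had 54.6 and 48.3 CPM in Cr A x Cr B, against 41.5 and 89.1 CPM in Cr B x Cr A. Its high library, replicate 2 of Cr B x Cr A, is also the one with its highest maternal share. M5 had 101.9 and 114.7 CPM in Cr A x Cr B, against 60.6 and 104.5 CPM in Cr B x Cr A. M12, M11, M2 and M3 had fitted differences of 0.44 ± 0.63, 0.35 ± 0.58, 0.21 ± 0.40 and 0.09 ± 0.48 on the log2 scale (SE). All 13 had an adjusted p of 1.00, the fitted values were higher in Cr A x Cr B for 6 and lower for 7, and their median log2 difference was -0.0069, against -0.035 for all genes. The median absolute difference was 0.35 for the 13 and 0.36 for all genes.

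**Figure D4:**
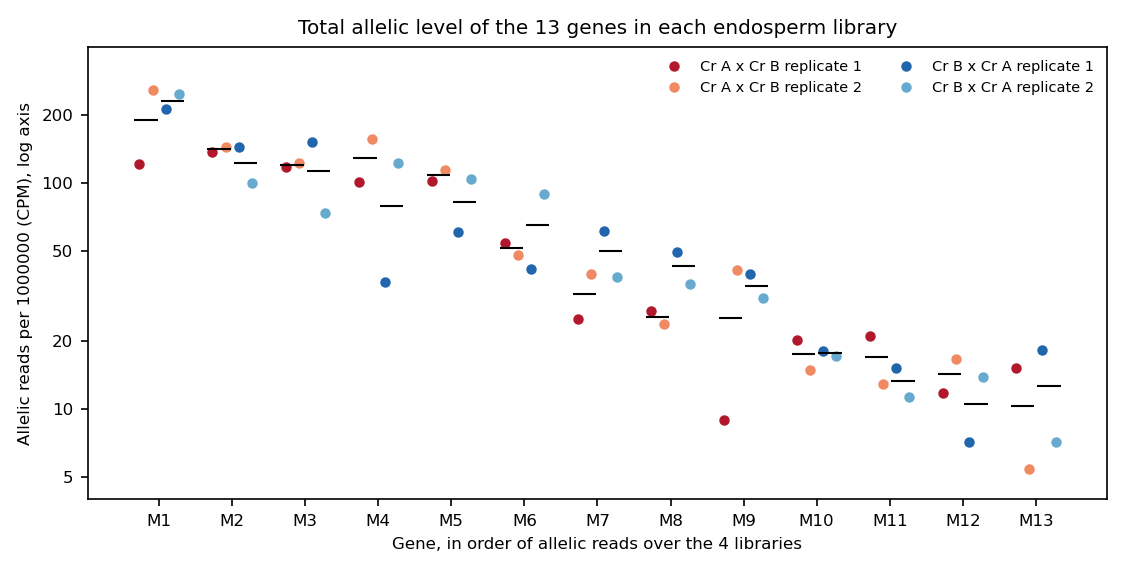
Allelic CPM (y axis, log axis) of M1 to M13 (x axis) in each library, Cr A x Cr B in red and Cr B x Cr A in blue, with a black line at the mean of each cross. Libraries of a cross are often as far apart as the crosses, as in M9 with 8.94 and 41.5 in Cr A x Cr B, and the crosses do not overlap in M8 alone.

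In gene structure the 13 had a median length near that of genes at dosage and of all genes, and more of them had a single SNP. Their lengths spread widely, with quartiles of 1656 and 3522 bp. The median was 2997 bp, against 1978 bp for the 143 genes at 85% or more in each library. It was 2935 bp for the 1623 genes at 60% to under 75% in each, and 2751 bp for all 5879. Genes with 1 SNP made up 38.5% of the 13, 5 genes, against 21.0%, 21.9% and 19.2% in those groups. Of the SNPs of the 13, 95.6% were in exons, against 83.4%, 68.9% and 73.2%. With 13 genes these are counts of this list, without a test. The 13 lie on 7 of the scaffolds 1 to 8, with 3 on scaffold 4 and 0 on scaffold 7, and no 2 start within 2381156 bp of each other.

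A pair of readings of the same shares is given for reference, and nothing is read from them, since the rule used the same reads. In a fit of parent, accession and library with the 2 to 1 dosage as the null (edgeR), 493 of 8597 genes, 5.73%, were past the threshold of 0.05 towards maternal, and 9 of the 13 were, all but M9, M11, M12 and M13. The count of 9 became 4 without either library of Cr A x Cr B, 6 without replicate 1 of Cr B x Cr A and 5 without replicate 2. In the authors' deposited table, the gene p-value was under 0.05 on the maternal side in each library for 355 of the 5879 genes, 6.04%, and for 11 of the 13. The maternal ratio in the authors' deposited table, which divides maternal reads by 2, ran from 0.60 to 0.739 for the 13.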

How the data were processed

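RNA of 4 endosperm libraries was analysed, and leaf DNA was not analysed here. Each library came with a file of base counts at SNPs, as deposited by the authors. In 2 further tables the authors deposited, per the file headers, maternal and paternal read counts per SNP, gene and exon intervals, a p-value per gene and a fraction, the maternal ratio. TopHat, Trimmomatic and Bowtie 1.0 are listed, without their use, in the submitters' processing notes. How alleles were called, and on which genome build, is not given in the sources used here. A read is counted at each SNP it covers, so counts are not independent molecules, and intervals cover counting error only.

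Counts were summed over all SNPs of a gene interval. Both fits used edgeR 4.0.16 (quasi-likelihood, Benjamini-Hochberg over all genes tested, threshold 0.05). The parental fit had library, accession and parent as terms, a 2 to 1 offset, and 20 reads or more in each cross. The fit of total reads had the cross as its term, TMM scaling and filterByExpr. DESeq2 1.42.0 was an alternative, and the code was tested on simulated data. Because the replicates may not be separate plants, p-values measure the spread between these samples.

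The members and lists were chosen with earlier results of these data known. Genes named were, among the 13, those deepest, highest, lowest and most even in share and most different in level. The 3 genes nearest to each share bound, inside and outside the list, were also looked up, and only some of those outside are named. Lists of gene classes and of endosperm, seed coat and embryo markers were not matched, because no names are paired with the intervals, and they give no result. No SNP of the 13 genes had conflicting base assignments between tables.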

Additional observations from a re-analysis of the deposited data

How the results depend on the processing

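The list was sensitive to the bounds and the scale. Instead of 13 genes, shifting each library to a median of 66.7% gave 6, bounds of 77% and 83% gave 4, and leaving out 1 library gave 30 to 52. Exon SNPs gave 15, a minimum of 20 reads 17 and of 100 reads 10, and the deepest SNP alone 10. The 5 of the 13 among those 10 are the genes with 1 SNP, which this setting cannot change, and 0 of the 8 genes with several SNPs kept the band in each library at their deepest SNP. The mean share there was 81.3% in M6, 81.9% in M12 and 64.4% in M7, the last set by 1 library with 28.6% of 7 reads, against 70.9% to 84.1% in the others. In the parental fit, 9 of the 13 became 10 in DESeq2, 5 with the offset at each library's median ratio and 4 to 6 with 1 library left out. The 493 of 8597 genes became 619 in DESeq2 and 361 with that offset. They became 293 with 50 reads in each library, a minimum that 5879 genes meet, and 313 to 417 with 1 library left out.

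For total expression, 0 genes became 24 in DESeq2, 5 without the low-count filter and 5 with the replicate number as a block, and 0 of the 13 passed in any setting. In the labels the replicate numbers share only a name. Over the 9040 genes, the deviation of replicate 1 from its cross mean correlated at 0.575 between the crosses. Replicate 2 was higher in both crosses in 33.0% of genes and lower in both in 32.6%. The main fit did not model this shared shift, and its source was not tested. The sign of the log2 difference, with no call on either side, turned when 1 library was left out in 8 genes, whose values then ran from -0.92 to 0.17 in M1, -0.014 to 0.50 in M2, -0.33 to 0.71 in M3, -0.79 to 0.33 in M6, -1.96 to 0.24 in M9, -0.24 to 0.21 in M10, -0.041 to 0.68 in M11 and -1.22 to 0.51 in M13. In M10 it also turned under DESeq2, at 0.0018. Values without a turn ran from 0.072 to 1.84 in M4, 0.052 to 0.85 in M5, 0.044 to 1.00 in M12, -0.98 to -0.25 in M7 and -0.95 to -0.49 in M8. The cause of these shifts was not tested. Depth limits M9 to M13 most, whose shallowest libraries had 59 to 147 reads.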

Other observations

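Of the 26 nearest genes with 50 or more reads in each library, 1 on each side at 93 to 108988 bp, 19 had a mean share under 75%, 4 lay from 75% to under 85%, and 3 were at 85% or more, with a median of 69.5%. That is 73.1%, 15.4% and 11.5% of the neighbours, beside 90.6%, 5.75% and 3.67% of all 5879 genes, whose median was 68.9%. At 60% to under 75% in each library were 8 of the 26, 30.8%, beside 27.6% of all genes. These are counts of 26 genes, without a test. A single neighbour was at 85% or more in each library. It lies 1234 bp from M2, at scaffold 6, 6045632 to 6047609, on the plus strand like M2, with a mean share of 98.3%.

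M7 lay between the other 2 neighbours with a mean of 85% or more. The gene at scaffold 3, 1488969 to 1493827, 4408 bp away, had a mean of 88.6% and the gene at 1502697 to 1506331, 1466 bp away, 87.3%, each with a library near 72.5%. M6 lay 93 bp from a gene at scaffold 2, 2434174 to 2435958, on the same strand, whose share ranged from 4.69% to 99.5% over the libraries while M6 stayed between 75.7% and 81.6%.

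The shares of single genes were alike within a cross and not between crosses. Over the 5879 genes, Pearson's r was 0.79 within Cr A x Cr B and 0.75 within Cr B x Cr A, and between -0.14 and -0.09 for libraries of different crosses. The maternal allele is that of Cr A in one cross and that of Cr B in the other. A preference for the allele of 1 accession therefore moves the maternal share in opposite directions in the crosses. An effect of parent moves it in the same direction in both. How much each adds to these correlations was not tested. These values are across genes, which are not independent replicates, and all 4 libraries share the same SNPs.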
